A study of Arabidopsis with 12 samples.

Results

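The members are 8 autophagy genes of Arabidopsis, chosen by name. They are 7 genes of the ATG8 family (ATG8B, AT4G04620; ATG8C, AT1G62040; ATG8D, AT2G05630; ATG8E, AT2G45170; ATG8F, AT4G16520; ATG8G, AT3G60640; ATG8H, AT3G06420) and ATG3 (AT5G61500). Each had 1 probe set of its own on the array, so 8 of the 16548 named genes and 8 of the 38408 probe sets are described. Autophagy carries parts of the cell to the vacuole inside double membranes called autophagosomes. ATG8 is a small ubiquitin-like protein that is joined to a lipid of the growing membrane, where it binds cargo receptors, and ATG3 is the conjugating enzyme that performs the last step of that reaction. In plants the pathway is known to recycle nutrients under starvation and stress, and the TOR kinase represses it when nutrients and energy suffice.

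RNA came from whole seedlings, of Col-0, the standard laboratory accession, or of tori 35-7. The series title refers to TOR, but the labels do not say how TOR is altered in tori 35-7 or whether it is 1 line of several. Seedlings of both genotypes grew for 5 days at 22 °C and were then kept for 72 h on control medium (0.8% agar) or on water-deficit medium (2% agar), so that they were 8 days old at sampling. This gave 4 groups of 3 Affymetrix arrays each, and the number of arrays limits the precision.

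All levels are given on the log2 scale, a group mean carries the SD of its 3 arrays, and differences are log2 differences with the standard error (SE) of limma's fit to all 12 arrays. Levels of different genes were not set against each other, since a probe set's brightness also depends on its probes. TOR itself was not analysed here. Medians of the 12 arrays lay between 3.06 and 3.19. Col-0 water deficit replicate 1 and tori 35-7 control replicate 1 had the narrowest interquartile ranges (2.56 and 2.68, against 2.91 to 3.08 on the other arrays), and Col-0 water deficit replicate 1 also had the lowest median correlation to the other arrays (0.950). Leaf and root RNA were both present: the root beta-glucosidase gene PYK10 had a mean level of 11.98 and the photosystem I gene PSAE-1 one of 9.74. Of the fixed lists of cell type markers, 3 of 7 leaf mesophyll, 1 of 7 root, 2 of 4 root hair, 3 of 5 guard cell and none of 4 xylem genes were measured.

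ATG8E was higher under water deficit than on control medium, and higher in tori 35-7 than in Col-0, when each difference was averaged over the other factor. It was the only member past the threshold (adjusted p under 0.05) in any of the 7 comparisons. Its levels were 5.06, 4.85 and 5.14 on the Col-0 control arrays and 5.27, 5.39 and 5.34 on the Col-0 water-deficit arrays. In tori 35-7 they were 5.20, 5.37 and 5.45 on control medium and 5.70, 5.79 and 5.68 under water deficit. Every water-deficit array was above every control array of its genotype, and every tori 35-7 water-deficit array was above all 9 others. The group means ran from 5.02 ± 0.15 in Col-0 control through 5.33 ± 0.06 in Col-0 water deficit and 5.34 ± 0.13 in tori 35-7 control to 5.72 ± 0.06 in tori 35-7 water deficit. The middle groups of that order overlapped, and the lowest and the highest group stood apart from them. Averaged over the genotypes, water deficit raised ATG8E by 0.35 ± 0.09, or 1.27-fold (limma adjusted p = 0.0415), in a comparison in which 3.7% of all genes passed. Averaged over the media, ATG8E was 0.36 ± 0.09 or 1.28-fold higher in tori 35-7 (limma adjusted p = 0.0438), where 2.88% of genes passed.

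The separate comparisons of ATG8E did not pass. Its difference under water deficit was 0.31 ± 0.12 in Col-0 (adjusted p = 0.289) and 0.38 ± 0.12 in tori 35-7 (adjusted p = 0.23). Its difference between genotypes was 0.32 ± 0.12 on control medium (adjusted p = 0.365) and 0.39 ± 0.12 under water deficit (adjusted p = 0.169). These pairs of comparisons share arrays, as Col-0 control serves for the first and the third. The interaction, which asks whether the response to water deficit differs between genotypes, was 0.07 with a 95% interval from -0.31 to 0.45, an interval about as wide as the responses themselves on either side of 0. The call for the medium held without Col-0 water deficit replicate 1 (adjusted p = 0.0267) and did not hold when any 1 of the remaining 11 arrays was left out (adjusted p 0.0525 to 0.12). The call for the genotype held without Col-0 water deficit replicate 1 or 2 or tori 35-7 control replicate 1 (adjusted p 0.0361 to 0.0487) and did not hold without any 1 of the remaining 9 (0.0566 to 0.116). Of the 10 other settings tried, the call for the medium held in 5 (adjusted p 0.0208 to 0.0635 over the 10) and that for the genotype in 7 (0.0115 to 0.0734).

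In whole seedlings fewer cells of a type and less RNA per cell cannot be told apart. The mean level of the 3 measured leaf mesophyll markers was 6.95 to 7.11 on the Col-0 control arrays and 7.37 to 7.46 under water deficit in Col-0. It was 7.30 to 7.40 in tori 35-7 control and 8.01 to 8.14 in tori 35-7 water deficit. Of these, the antenna protein genes LHCB4.1 and LHCB4.2 were higher in both averaged comparisons (limma adjusted p = 0.00963 and 2.35e-04 for the medium, 0.0385 and 0.00322 for the genotype), and PSAE-1 passed in neither. PSAE-1 also had another order of groups, with its lowest mean in Col-0 water deficit (9.54 ± 0.33) and close means in Col-0 control (9.62 ± 0.16) and tori 35-7 control (9.64 ± 0.09). The 3 measured genes of the guard cell list had mean levels of 4.203 to 4.537, 4.196 to 4.834, 3.76 to 4.30 and 4.30 to 4.58 in the same order of groups. That mean includes SPCH, whose SD within groups was 0.57. Among them the guard cell fate regulator FMA was higher under water deficit by 0.66 ± 0.13 (limma adjusted p = 0.00935) and lower in tori 35-7 (-0.59 ± 0.13, adjusted p = 0.0224). The 2 root hair markers (3.65 to 3.83, 3.77 to 3.93, 3.58 to 3.70 and 3.61 to 3.87) and PYK10 did not pass in either. The levels of PYK10 were 11.963 to 12.013, 11.843 to 11.886, 12.046 to 12.088 and 11.975 to 12.038 in the same order of groups. They were lower under water deficit in each genotype and higher in tori 35-7 on each medium, without overlap. The averaged differences of PYK10 were -0.09 for the medium and 0.12 for the genotype. The stomatal lineage genes MUTE and SPCH, the other 2 of the guard cell list, did not pass, with averaged differences of 0.26 ± 0.11 and -0.03 ± 0.26 for the medium and of -0.24 ± 0.11 and 0.09 ± 0.26 for the genotype. The part of these markers in the differences of ATG8E was not tested.

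**Figure D1:**
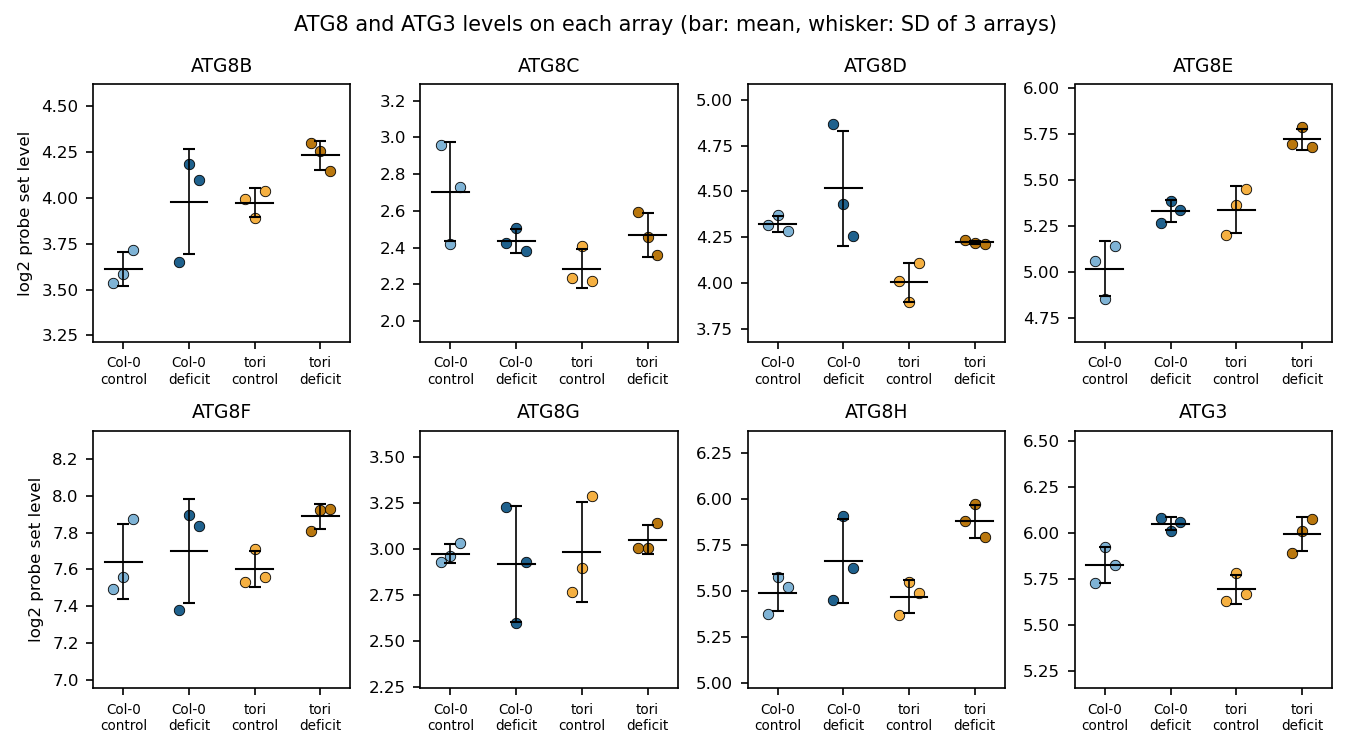
Log2 probe set levels of the 8 genes on the 12 arrays, 1 panel per gene, with points for arrays, bars for group means and whiskers for the SD of 3 arrays; every panel spans the same log2 range. ATG8E has its lowest mean in Col-0 control (5.02) and its highest in tori 35-7 water deficit (5.72), the tori 35-7 points of ATG8D lie below its Col-0 points, and the groups of ATG8G overlap.

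ATG8B, a close relative of ATG8C and ATG8D within the family, had its lowest group mean in Col-0 control (3.61 ± 0.09), its highest in tori 35-7 water deficit (4.23 ± 0.08), and nearly equal means in the other groups (3.98 ± 0.28 and 3.97 ± 0.08). Its levels were 3.54, 3.58 and 3.72 in Col-0 control, 3.652, 4.181 and 4.098 in Col-0 water deficit, 3.99, 3.89 and 4.04 in tori 35-7 control and 4.30, 4.25 and 4.14 in tori 35-7 water deficit. Col-0 water deficit replicate 1 lay among the Col-0 controls, the tori 35-7 control arrays stood above the Col-0 controls, and the water-deficit groups overlapped. The averaged differences were 0.31 ± 0.10 for water deficit (limma adjusted p = 0.126) and 0.31 ± 0.10 for tori 35-7 (limma adjusted p = 0.132), and neither passed. Without Col-0 water deficit replicate 1 the difference in Col-0 was 0.53 in place of 0.37 and passed (limma adjusted p = 0.0415), as did the averaged difference for water deficit (0.39, adjusted p = 0.0111). Neither passed when any 1 of the other 11 arrays was left out (limma adjusted p of at least 0.285 in Col-0 and 0.160 averaged). Without that replicate more of all genes passed as well, 331 in place of 203 in Col-0 and 928 in place of 612 averaged.

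ATG8D and ATG8C had lower values in tori 35-7 than in Col-0 on control medium, without passing the test. ATG8D was at 4.32, 4.37 and 4.28 in Col-0 control and at 4.87, 4.43 and 4.26 in Col-0 water deficit, against 4.01, 3.90 and 4.11 in tori 35-7 control and 4.23, 4.22 and 4.22 in tori 35-7 water deficit. Both tori 35-7 groups of ATG8D lay below both Col-0 groups with no overlap. The difference of ATG8D between genotypes was -0.31 ± 0.10 averaged over the media, or 0.809-fold (limma adjusted p = 0.144). Col-0 water deficit replicate 1 was the highest of the 12 arrays, in a group of 4.52 ± 0.31. ATG8C was at 2.96, 2.42 and 2.73 in Col-0 control and at 2.23, 2.41 and 2.22 in tori 35-7 control, and under water deficit at 2.42, 2.51 and 2.38 in Col-0 and 2.59, 2.46 and 2.36 in tori 35-7. The difference of ATG8C on control medium was -0.42 ± 0.14 (limma adjusted p = 0.286). Its mean level over the 12 arrays was 2.47, below the median of every array.

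ATG8F and ATG8G, close relatives of ATG8E, did not pass in any comparison. ATG8F was at 7.49, 7.56 and 7.88 in Col-0 control, 7.38, 7.89 and 7.83 in Col-0 water deficit, 7.53, 7.71 and 7.56 in tori 35-7 control and 7.81, 7.93 and 7.93 in tori 35-7 water deficit. Its groups did not overlap between media in tori 35-7, with a difference of 0.29 ± 0.15 (limma adjusted p = 0.621), and overlapped in Col-0. ATG8G had overlapping groups throughout, with group means between 2.92 ± 0.31 and 3.05 ± 0.08. Its averaged difference for water deficit was 0.01 with a 95% interval from -0.25 to 0.26, and 6.8% of its variance over the 12 arrays lay between the groups, against 89.1% for ATG8E. The mean level of ATG8G over the 12 arrays was 2.98, below the median of every array.

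ATG8H belongs to the branch of the family whose proteins end at the glycine that is joined to the lipid, so that they do not need the trimming by the ATG4 protease. It was at 5.38, 5.58 and 5.52 in Col-0 control and 5.45, 5.91 and 5.62 in Col-0 water deficit, and at 5.37, 5.55 and 5.49 in tori 35-7 control and 5.88, 5.97 and 5.79 in tori 35-7 water deficit. In tori 35-7 the groups stood apart and in Col-0 they overlapped. ATG8H had the largest difference under water deficit among the members in tori 35-7, 0.41 ± 0.14 or 1.33-fold (limma adjusted p = 0.246), and 0.17 ± 0.14 in Col-0 (adjusted p = 0.676). The test of the difference between these responses did not pass (interaction 0.24, 95% interval from -0.17 to 0.65, limma adjusted p = 0.864). Its averaged difference was 0.29 ± 0.10 (limma adjusted p = 0.136) and passed without Col-0 water deficit replicate 1 (0.34, adjusted p = 0.038). That difference did not pass when any 1 of the other 11 arrays was left out (limma adjusted p of at least 0.160). Over all genes 928 passed without that replicate, in place of 612.

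ATG3 was the member with the closest replicates. It was at 5.73, 5.92 and 5.82 in Col-0 control and 6.08, 6.01 and 6.06 in Col-0 water deficit, and at 5.63, 5.78 and 5.66 in tori 35-7 control and 5.89, 6.01 and 6.07 in tori 35-7 water deficit. In each genotype the water-deficit arrays lay above the control arrays without overlap. The averaged difference of ATG3 was 0.26 ± 0.08 or 1.20-fold and did not pass (limma adjusted p = 0.109). Its difference between genotypes was -0.09 ± 0.08 (limma adjusted p = 0.665), with a 95% interval from -0.27 to 0.08. The SD of ATG3 within groups was 0.0798, at or below which lay 1.4% of genes, and that of ATG8E was 0.107, with 6.3% of genes. The median SD over all genes was 0.2001.

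Counted over the members, water deficit gave 8 of 8 differences above 0 in tori 35-7 and 6 of 8 in Col-0, where 51.6% and 52.7% of all genes lay above 0. The exceptions in Col-0 were ATG8C (-0.27) and ATG8G (-0.05). The median of the 8 was 0.27 in tori 35-7 and 0.18 in Col-0, beside 0.01 over all genes in each. None of the 8 passed limma's test in either genotype, where 1.16% and 1.23% of genes passed. At an unadjusted p under 0.05 there were 3 in tori 35-7 (ATG8E, ATG8H and ATG3), all higher, where 5.9% of genes were higher at that limit, and 2 in Col-0 (ATG8B and ATG8E), where 5.67% of genes were. The water-deficit arrays stood above the control arrays for 6 of 8 members in tori 35-7 (all but ATG8C and ATG8G), as for 11.1% of genes, and for 2 of 8 in Col-0 (ATG8E and ATG3), as for 7.26% of genes. Without tori 35-7 control replicate 1 the count above 0 in tori 35-7 was 7 of 8, with ATG8G at -0.04. Averaged over the genotypes, 7 of 8 were above 0 (as were 53.4% of genes), 1 passed (ATG8E) and 4 had an unadjusted p under 0.05 (ATG8B, ATG8E, ATG8H and ATG3), where 7.46% of genes were higher at that limit.

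**Figure D2:**
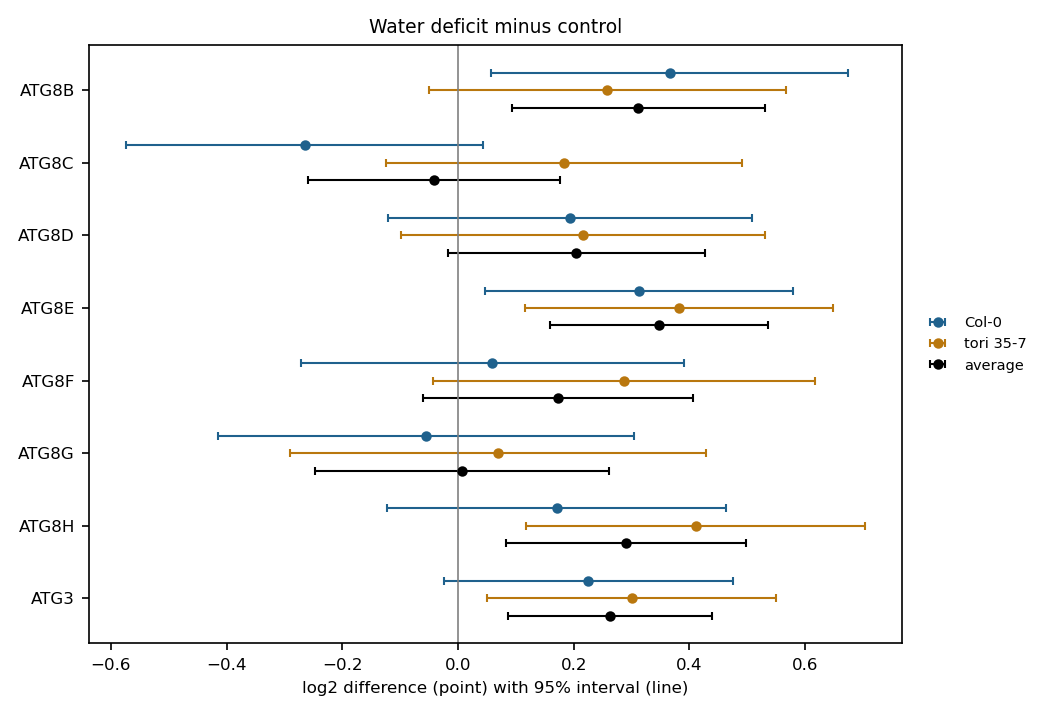
Log2 difference between water deficit and control for each gene in Col-0, in tori 35-7 and averaged over both, with 95% intervals of limma's fit as lines. The averaged intervals of ATG8B, ATG8E, ATG8H and ATG3 lie above 0, and only ATG8E passes after adjustment over all genes.

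Between the genotypes the members did not move one way. On control medium 3 of 8 were above 0 in tori 35-7, as were 48.5% of genes, with a median of -0.03 beside -0.01 over all genes. None passed limma's test, as 0.568% of genes did, and 4 had an unadjusted p under 0.05, 2 higher (ATG8B and ATG8E, where 3.83% of genes were) and 2 lower (ATG8C and ATG8D, where 6.15% were). The same 4 members had groups that did not overlap, which was so for 7.86% of genes in the higher and 11.4% in the lower direction. Under water deficit 6 of 8 were above 0, as were 47.5% of genes, with a median of 0.16 beside -0.01 over all genes. None passed limma's test there, as 0.822% of genes did, and ATG8E alone had an unadjusted p under 0.05, where 7% of genes were higher and 5.84% lower at that limit. The groups under water deficit did not overlap for ATG8E in the higher direction (8.61% of genes) and ATG8D in the lower (8.05%). Averaged over the media, 5 of 8 were above 0, as were 48.5% of genes. There ATG8E passed, and at an unadjusted p under 0.05 stood ATG8B and ATG8E above 0 (6.99% of genes) and ATG8D below 0 (8.46%). The interaction was above 0 for 7 of 8 members and for 50.8% of genes, and by limma it passed for none of the 8 and for 0.00604% of genes. The count above 0 depended on the scaling, as it was 4 of 8 with quantile normalization and 4 of 8 with equal interquartile ranges. At an unadjusted p under 0.05 it held ATG8C alone (0.45 ± 0.20, limma adjusted p = 0.815), where 3.64% of genes lay above 0 at that limit.

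**Figure D3:**
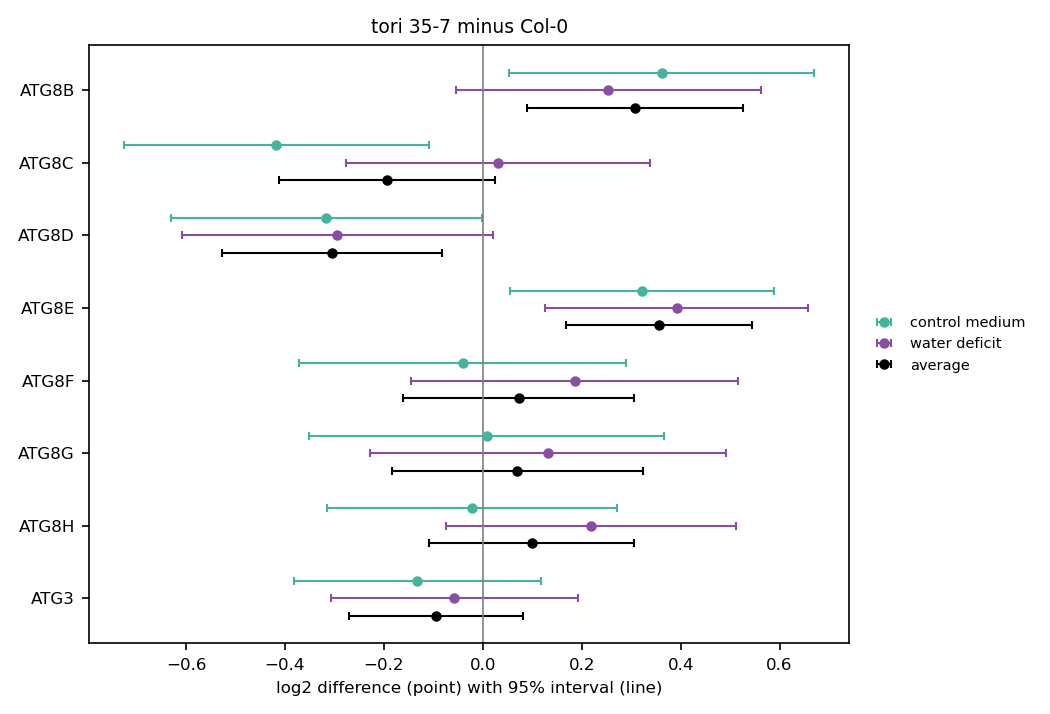
Log2 difference between tori 35-7 and Col-0 for each gene on control medium, under water deficit and averaged over both, with 95% intervals of limma's fit as lines. The points of ATG8B, ATG8E and ATG8G lie above 0 and those of ATG8D and ATG3 below 0 on both media. Under water deficit only the interval of ATG8E excludes 0. The averaged intervals of ATG8C, ATG8F, ATG8G, ATG8H and ATG3 include 0.

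Across the 12 arrays the correlations between members ran from below 0 to high values. ATG8B and ATG8E had the highest correlation of the 28 pairs (Pearson's r = 0.862), followed by ATG8F with ATG8H (0.792) and ATG8B with ATG8H (0.757). The median over the pairs was 0.141, and the lowest values were those of ATG8B with ATG8C (-0.407) and with ATG8D (-0.343). After subtraction of the group means, ATG8B with ATG8F (0.754) and ATG8B with ATG8H (0.692) had the highest values, ATG8B with ATG8E was at 0.386, and ATG8D with ATG8F (-0.788) and ATG8B with ATG8D (-0.702) had the lowest. Without the 2 arrays of narrowest spread, and with group means kept, ATG8D with ATG8F was at 0.091 in place of -0.294. In that setting ATG8B was at -0.121 with ATG8D, at -0.491 with ATG8C and at 0.908 with ATG8E. These points share the arrays, with their spread of values and the groups, and a probe set of 1 ATG8 gene may also take up RNA of a close relative, which was not tested.

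The mean of the 8 members, each centred on its own mean, lay between -0.13 and -0.02 on the Col-0 control arrays, between -0.19 and -0.05 in tori 35-7 control, between 0.01 and 0.08 in Col-0 water deficit and between 0.14 and 0.17 in tori 35-7 water deficit. Each member is part of that mean, so each was also set against the mean of the other 7. ATG8H (r = 0.799) and ATG8E (0.664) had the highest such correlations, and those of ATG8C (-0.165), ATG8G (-0.042) and ATG8D (-0.018) were below 0. The 5 genes outside the members with the highest correlation to it, out of 9913 with an SD of at least 0.2 over the 12 arrays, were AT1G60730 (0.957), AT3G62550 (0.956), AT4G25400 (0.946), AT1G05060 (0.945) and AT3G17770 (0.939). They were chosen for this likeness, so no test is given. Without the 2 arrays of narrowest spread these correlations were between 0.927 and 0.947 and the ranks between 14 and 33. With quantile normalization AT4G25400 had a correlation of 0.761 and rank 241, and the other 4 had ranks from 1 to 9. The levels of AT3G62550 were 7.94 ± 0.15 in Col-0 control, 8.60 ± 0.20 in Col-0 water deficit, and 7.74 ± 0.16 and 8.89 ± 0.07 in the matching tori 35-7 groups.

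The other genes of the pathway were taken from a list of 43, of which 14 were measured. The conjugation enzyme ATG7, ATG5 and ATG12 of the complex that assists it, the ATG4 proteases, ATG9, ATG2 and the receptor NBR1 were not analysed here. None of the 14 passed limma's test in any of the 7 comparisons. At an unadjusted p under 0.05 there were 0 for water deficit in Col-0, 2 in tori 35-7, 0 for the interaction, and by genotype 0 on control medium and 3 under water deficit (1 higher, 2 lower). Over all genes the shares are those given for the members, such as 5.9% higher in tori 35-7. In the averaged comparison of media, 11 of 14 were above 0, as were 53.4% of all genes, with a median of 0.05, and 2 had an unadjusted p under 0.05, both higher, as had 7.46% of genes. These were ATG16, a scaffold of the complex that directs ATG8 conjugation, and ATG101, a subunit of the ATG1 kinase complex that starts autophagosome formation. ATG16 differed by 0.33 ± 0.10 (limma adjusted p = 0.0877). Its levels were 4.69, 4.77 and 4.92 in Col-0 control, 5.27, 4.85 and 5.05 in Col-0 water deficit, 4.42, 4.50 and 4.72 in tori 35-7 control and 5.00, 5.01 and 4.85 in tori 35-7 water deficit, so that the media overlapped in Col-0 and stood apart in tori 35-7. ATG101 differed by 0.30 ± 0.11 (limma adjusted p = 0.206), and DSK2A, a ubiquitin-binding receptor, was at -0.17 ± 0.08 (limma adjusted p = 0.41).

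By genotype, averaged over the media, 5 of the 14 were above 0, as were 48.5% of genes, with a median of -0.06. ATG1C, a kinase of the ATG1 family, and SH3P2, a membrane-binding protein of autophagosome formation, had an unadjusted p under 0.05 below 0, as had 8.46% of genes, at -0.20 ± 0.09 and -0.22 ± 0.09 (limma adjusted p = 0.259 and 0.26). On control medium 4 of the 14 were above 0 and none had an unadjusted p under 0.05. Under water deficit ATG1A, another ATG1 kinase, was at 0.37 ± 0.17 and ATG1C at -0.31 ± 0.12, without passing (limma adjusted p = 0.38 and 0.272). SH3P2 had group means there of 5.11 ± 0.15 in tori 35-7 and 5.41 ± 0.13 in Col-0, also without passing. The other measured members of the ATG8 family did not pass either. ATG8A, whose replicates spread widely (SD within groups 0.346), differed by 0.30 ± 0.17 between genotypes. ATG8I (AT3G15580, named APG8H in the RefSeq table and not the same gene as ATG8H) differed by -0.10 ± 0.11.

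**Figure D4:**
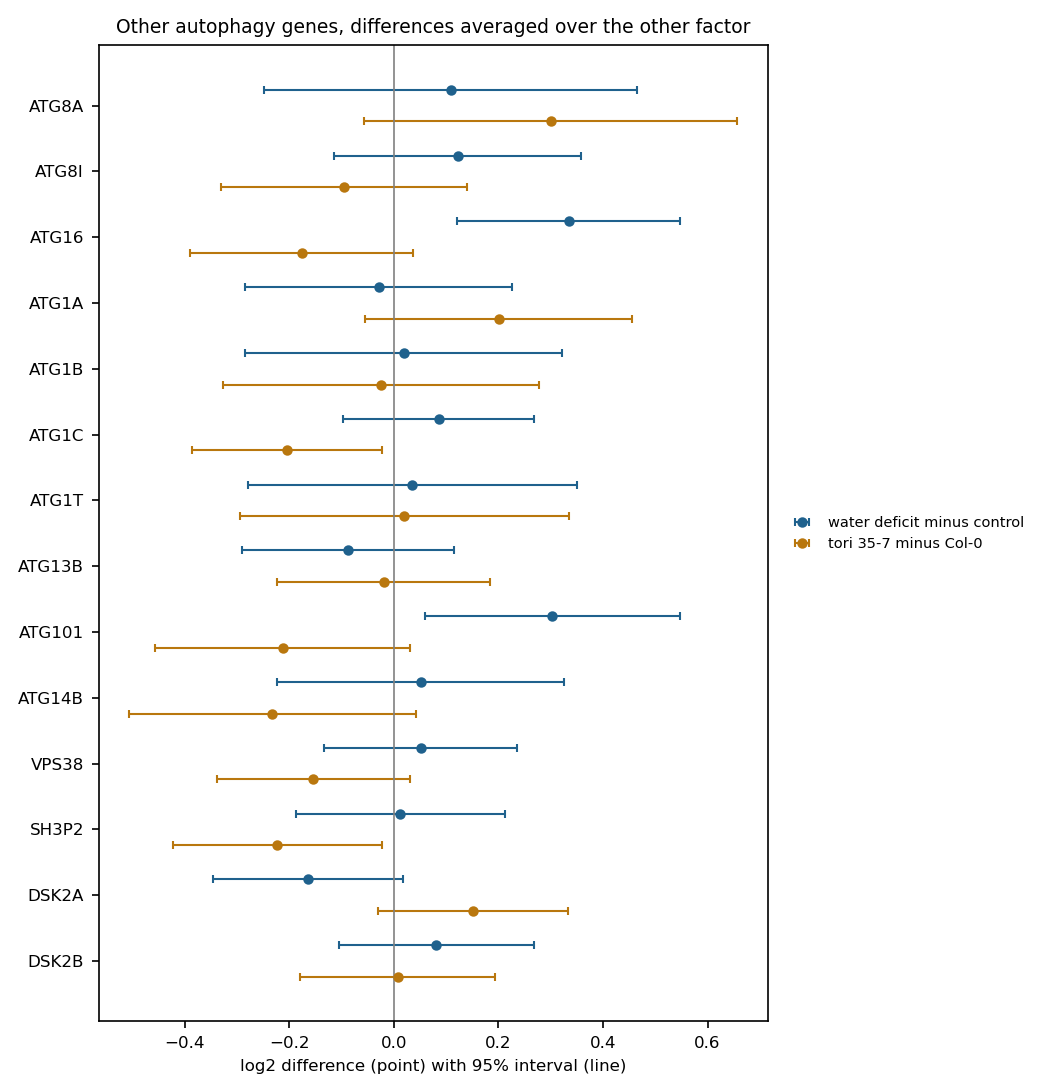
Log2 differences of the 14 other measured autophagy genes between media (averaged over genotypes) and between genotypes (averaged over media), with 95% intervals of limma's fit as lines. ATG16 and ATG101 have intervals above 0 between media, ATG1C and SH3P2 below 0 between genotypes, and no gene passes after adjustment over all genes.

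Of 24 genes of TOR and SnRK1 signalling, the kinases that repress and promote autophagy, 9 were measured. None passed limma's test between media in either genotype or averaged. At an unadjusted p under 0.05 there were 2 lower in Col-0 (as were 1189 of 16548 genes) and 1 higher in tori 35-7 (5.9% of all genes). Averaged over the genotypes there were 2 higher (7.46%) and 1 lower (as were 1148 of 16548 genes). In the averaged comparison of genotypes 2.88% of genes passed. There AKINBETA1, a regulatory subunit of SnRK1, was 0.89 ± 0.14 higher in tori 35-7 (limma adjusted p = 0.00434). AT4G34270, listed as TIP41-like, was lower (-0.89 ± 0.14, limma adjusted p = 0.00393). On the separate media AKINBETA1 passed under water deficit (1.15, limma adjusted p = 0.0203) and not on control medium (0.63). AT4G34270 passed on neither (-0.89 on control medium and -0.88 under water deficit). The list of 8 dark-induced and senescence genes had no measured member and was not analysed here.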

How the data were processed

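Total RNA (100 ng per array) was labelled with biotin and hybridised to Affymetrix Arabidopsis arrays, per the labels' protocols. The submitters' processing notes name Transcriptome Analysis Console 4.0.1. The deposited values (1.13 to 13.17) carry no named scale and were read as log2 levels by their range. How background was corrected and arrays normalized is not given in the sources used here. A faulty normalization would affect many genes of an array at once, and not always in the same direction. All 12 columns were mapped to labelled samples.

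The array annotation gives 1 gene for 16722 probe sets and several for 759, which were left out, and 20927 are unnamed here. Names were updated through the RefSeq table of TAIR10.1, which matched 16411 of 16548 genes. A gene with several probe sets (148 genes, no member) was represented by the brightest. No coordinates or sequences are printed. A mean for each group was fitted to the 12 arrays with limma 3.58.1 (lmFit, eBayes) in R 4.3.3, without covariates, and 7 contrasts were taken: the medium in each genotype, the genotype on each medium, their interaction and both averages. P-values are two-sided with Benjamini-Hochberg adjustment over all 16548 genes, and the threshold was 0.05. Whether replicates are separate cultures is not in the labels; p-values thus reflect the spread between these samples alone, and it may be technical. The fit was also run on simulated data with independent noise and planted changes larger than any difference of the members. That run therefore does not bear on differences of their size. All 8 members passed the filter on low levels tried as an alternative (above the 25th percentile of mean level). The mean levels of ATG8C (2.47) and ATG8G (2.98) were nevertheless below the median of every array (3.06 to 3.19). Of all genes, 37.2% and 49.9% lay at or below these means. Whether these 2 probe sets read above background was not tested.

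The members and gene lists were chosen with earlier results of these data known. Named are all members, measured genes of the fixed lists by smallest p, and the 5 genes whose pattern is most like the mean of the members. The alternatives were quantile normalization, median centring, the low-level filter, trended robust priors, array weights, fits on the arrays compared, a replicate block, averaged probe sets, all probe sets, and arrays left out. Scaling each array to the same interquartile range was added after the data were seen.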

Additional observations from a re-analysis of the deposited data

How the results depend on the processing

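Of the 56 differences (8 members in 7 comparisons), 40 kept their sign under every alternative run, and 16 changed it in at least 1. None of those 16 passed the threshold under any alternative, and in the main fit the largest of them was 0.13 in size. Under the alternatives ATG8G reached 0.29 between genotypes under water deficit and -0.21 for water deficit in Col-0. The direction of these 16 is thus not settled by these arrays. With quantile normalization the interaction was -0.082 for ATG8D, -0.081 for ATG8E and -0.084 for ATG3, and the difference between genotypes on control medium was -0.024 for ATG8G and 0.068 for ATG8H. With each array scaled to the same interquartile range, which was chosen after seeing the data, the interaction was -0.030 for ATG8D, -0.014 for ATG8E and -0.054 for ATG3, and the difference on control medium was 0.10 for ATG8F and 0.053 for ATG8H. With array weights the interaction of ATG8E was -0.0079, the difference of ATG8H on control medium 0.0030, and ATG8G had -0.025 for water deficit in tori 35-7 and -0.064 averaged. Without the 2 arrays of narrowest spread the interaction of ATG8E was -0.031, the difference of ATG8H on control medium 0.028, and ATG8G had -0.039 for water deficit in tori 35-7 and -0.12 averaged. With each array centred on its median ATG8G was at -0.0030 averaged. The cause of these changes was not tested.

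With 1 array left out in turn, water deficit in Col-0 gave -0.036 to 0.22 for ATG8F and -0.21 to 0.11 for ATG8G, and in tori 35-7 -0.039 to 0.22 for ATG8G. The averaged response ranged from -0.11 to 0.023 for ATG8C and from -0.070 to 0.087 for ATG8G, and the interaction from -0.11 to 0.20 for ATG8D and from -0.036 to 0.28 for ATG8G. Between genotypes on control medium the range was -0.12 to 0.076 for ATG8F, -0.14 to 0.12 for ATG8G and -0.079 to 0.028 for ATG8H. Under water deficit it was -0.031 to 0.086 for ATG8C and -0.028 to 0.29 for ATG8G, and averaged over the media -0.0084 to 0.13 for ATG8F and -0.010 to 0.15 for ATG8G.

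The number of members past the threshold for water deficit averaged over genotypes was 1 as reported. It was 2 with quantile normalization, array weights or without the 2 arrays of narrowest spread. It was 0 with median centring, trended robust priors, all probe sets or equal interquartile ranges, and between 0 and 3 with 1 array left out. For the genotype averaged over media it was 1, but 0 with trended robust priors or all probe sets, and 0 to 1 with 1 array left out. For water deficit in Col-0 it was 0, but 1 without the 2 arrays of narrowest spread, and 0 to 1 with 1 array left out. Over all genes 461 passed in Col-0 without those 2 arrays and 331 without Col-0 water deficit replicate 1, in place of 203. Among the other autophagy genes the averaged response to water deficit gave 1 call with array weights or without the 2 arrays of narrowest spread, each time ATG101. With 1 array left out it gave 0 to 1, namely ATG101 without Col-0 water deficit replicate 1 and ATG16 without replicate 2 of that group. Calls over all genes moved by more than 1.5 times as well, from 381 to 1128 around 612 for the averaged medium and from 246 to 1094 around 476 for the averaged genotype. For water deficit in Col-0 they moved from 39 to 461 around 203. The shares printed as background thus move with the setting.

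Replicate numbers are shared by the groups, but the deviations of same-numbered arrays correlated between -0.059 and 0.403 over 18 pairs, and 3 were over 0.1. These were all 3 pairs of Col-0 water deficit with tori 35-7 control (0.403, 0.258 and 0.177), which no comparison of 2 groups sets against each other. Both groups do enter each averaged comparison, on opposite sides, and the interaction, on the same side. The other 15 pairs, those of every comparison of 2 groups included, were not over 0.1, and the labels name no shared source. With the replicate block the number of members called was 0 in each averaged comparison, where ATG8E had an adjusted p of 0.0577 for the medium and 0.0552 for the genotype, and no other count of members changed.

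Fits on the arrays of the groups compared exist for the 4 comparisons of 2 groups and changed no count of members there.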
